A study of Homo sapiens with 16 samples.

Results

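Neuroendocrine lineage genes were examined here as 9 genes given by name, the transcription factors SOX2, INSM1, NEUROD1, POU3F2 and NKX2-1 and the marker genes NCAM1, CHGA, SYP and ENO2, out of 20037 protein-coding genes of the RefSeq annotation. The genes were chosen by name, and for each gene the deposited peaks of EZH2, H3K27me3 and H3K4me3 within 10 kb of its annotated span were collected. The chromatin came from LNCaP, an established androgen-responsive prostate carcinoma line, profiled by CUT&RUN, in which an antibody directs a micrococcal nuclease fusion that cuts out the fragments around its target. The cells carried sgPRKCI, a guide to the gene of atypical protein kinase C iota, or the control guide sgC, and were given 10 µM enzalutamide, an androgen receptor antagonist, or DMSO. This makes 4 conditions at 72 h, namely sgPRKCI on enzalutamide, sgC on enzalutamide, sgPRKCI in DMSO and sgC in DMSO. Each of the 3 antibodies was run on 1 library per condition, so no difference between conditions could be tested and all values are descriptions of 12 libraries. Whether the guided cells were a clone or a pool is not given in the sources used here, and RNA levels were not analysed here.

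EZH2 is the methyltransferase of Polycomb repressive complex 2, known as PRC2, which methylates lysine 27 of histone H3, and its product H3K27me3 marks silent developmental genes, often over long domains. H3K4me3 marks the starts of active genes, and developmental genes can carry both marks at their start. In prostate cancer, loss of the luminal programme under androgen receptor blockade can be accompanied by a neuroendocrine programme, in which neural transcription factors and secretory granule genes are expressed and EZH2 is often abundant. LNCaP is a luminal line, in which most neuroendocrine genes are usually little expressed.

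The lists differed in composition before any single gene was considered. The EZH2 list of sgPRKCI on enzalutamide stood apart, with 24551 peaks on the main chromosomes against 15373 for sgC on enzalutamide, 6182 for sgPRKCI in DMSO and 11452 for sgC in DMSO. In that list 55.4% of EZH2 peaks lay at H3K4me3 without H3K27me3 in the same condition, against 4.39%, 11.5% and 23.8% in the other EZH2 lists in that order. Every comparison of EZH2 that involves sgPRKCI on enzalutamide rests on this 1 library. H3K27me3 peaks covered 249 Mb, 290 Mb, 232 Mb and 192 Mb in the order sgPRKCI on enzalutamide, sgC on enzalutamide, sgPRKCI in DMSO and sgC in DMSO. Mean fragment coverage, recovered from the peak statistics, was 1.53, 1.68, 1.13 and 1.35 in the EZH2 libraries in that order. In the H3K4me3 libraries it lay between 0.842 and 1.56. The part of depth in differences of covered length was not tested. At the start of PRKCI itself an H3K4me3 peak was present in 4 of 4 libraries, which does not check the effect of the guide.

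The 9 genes fell into 3 chromatin states. EZH2 and H3K27me3 peaks lay within 10 kb in all 4 conditions at 6 genes, the transcription factors SOX2, INSM1, NEUROD1, POU3F2 and NKX2-1 and the neural cell adhesion gene NCAM1, against 7.95% of all protein-coding genes. CHGA, the gene of the granule protein chromogranin A, had H3K27me3 in all 4 conditions with neither EZH2 nor H3K4me3, as did 6.05% of all genes. SYP, the gene of the synaptic vesicle protein synaptophysin, and ENO2, the gene of neuron-specific enolase, had H3K4me3 in all 4 conditions and H3K27me3 in none, as did 48.3% of all genes. No H3K4me3 peak was called in any condition at SOX2, INSM1, NEUROD1 and NCAM1, which with EZH2 and H3K27me3 in all conditions was the state of 2.64% of all genes. When the EZH2 library of sgPRKCI on enzalutamide was left out, a choice made after the data were seen, the same 6 genes had both marks in the remaining libraries, against 8.22% of all genes.

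Promoter sequences are shown for 5 genes that represent these states, the 250 bases before and 50 bases after the annotated start, from RefSeq (GRCh38.p14), 5′ to 3′ on the gene's strand, with each CG in capitals because CG-rich starts are where both H3K4me3 and PRC2 usually gather. SOX2 (chr3:181711675-181711974, plus strand) stands for genes with EZH2 and H3K27me3 alone. POU3F2 (chr6:98834324-98834623, plus strand) and NKX2-1 (chr14:36520183-36520482, minus strand) stand for those where H3K4me3 was called in some conditions. CHGA (chr14:92922900-92923199, plus strand) stands for H3K27me3 alone and ENO2 (chr12:6914330-6914629, plus strand) for H3K4me3 without H3K27me3. These states were called within 10 kb, and the peaks need not lie on the bases shown. H3K27me3 peaks missed the bases of SOX2 in both DMSO libraries. They reached those of POU3F2 in sgC on enzalutamide only, and those of CHGA in sgPRKCI in DMSO only. The H3K4me3 peak of POU3F2 in sgC on enzalutamide missed the bases shown. No H3K4me3 peak lay on the bases of NKX2-1.
SOX2: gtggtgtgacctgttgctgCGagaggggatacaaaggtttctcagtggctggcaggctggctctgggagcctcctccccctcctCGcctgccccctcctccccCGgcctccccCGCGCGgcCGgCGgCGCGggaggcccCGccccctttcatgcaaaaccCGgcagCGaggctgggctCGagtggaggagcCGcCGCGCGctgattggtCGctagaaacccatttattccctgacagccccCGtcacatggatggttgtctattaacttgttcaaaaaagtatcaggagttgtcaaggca
POU3F2: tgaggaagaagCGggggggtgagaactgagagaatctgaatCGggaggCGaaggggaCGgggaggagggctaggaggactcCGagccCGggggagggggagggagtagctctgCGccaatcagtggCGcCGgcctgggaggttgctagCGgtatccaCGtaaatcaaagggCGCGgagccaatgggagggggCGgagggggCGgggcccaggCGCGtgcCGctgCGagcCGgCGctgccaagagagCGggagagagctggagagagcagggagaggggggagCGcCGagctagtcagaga
NKX2-1: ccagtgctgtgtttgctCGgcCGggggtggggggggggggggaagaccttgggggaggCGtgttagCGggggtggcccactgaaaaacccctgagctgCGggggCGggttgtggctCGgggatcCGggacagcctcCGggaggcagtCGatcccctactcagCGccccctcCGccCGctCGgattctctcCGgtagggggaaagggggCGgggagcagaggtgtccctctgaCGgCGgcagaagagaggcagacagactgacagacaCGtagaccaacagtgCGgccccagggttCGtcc
CHGA: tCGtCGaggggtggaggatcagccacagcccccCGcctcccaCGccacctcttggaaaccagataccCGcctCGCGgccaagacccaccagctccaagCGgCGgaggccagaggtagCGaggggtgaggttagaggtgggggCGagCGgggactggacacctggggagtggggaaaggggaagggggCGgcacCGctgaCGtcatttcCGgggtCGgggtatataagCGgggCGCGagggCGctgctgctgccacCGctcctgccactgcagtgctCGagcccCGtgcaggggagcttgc
ENO2: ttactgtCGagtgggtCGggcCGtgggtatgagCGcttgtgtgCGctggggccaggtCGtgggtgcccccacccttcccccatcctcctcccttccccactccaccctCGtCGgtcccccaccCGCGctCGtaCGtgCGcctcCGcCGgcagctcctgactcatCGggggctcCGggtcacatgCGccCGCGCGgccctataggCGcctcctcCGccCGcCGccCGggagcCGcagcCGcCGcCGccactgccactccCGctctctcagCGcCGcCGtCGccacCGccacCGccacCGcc

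The promoter table held 7 of the 9 genes. ENO2 had 38 CG and SYP 35, NEUROD1 had 31, CHGA and POU3F2 had 24 each, NKX2-1 had 21 and SOX2 had 20, where the median of 15843 coding promoters was 22. The genes with H3K4me3 in every condition thus had the most CG among the 7, and all 7 had a GC content at or above the median of 62.7%. Of the motifs searched on both strands, TGACGTCA, the cyclic AMP response element, was found in CHGA at −54 relative to the start and in none of the other 6, while 2.59% of all promoters held it. GGACAGC, part of the element bound by the neuronal repressor REST, was found in NKX2-1 at −124, as in 6.91% of promoters. TTCAGCACC, the other part of that element, AGAACA, a half-site of the androgen receptor, and TGTTTAC, a forkhead motif, had no match in the 7 windows.

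By library, EZH2 peaks were found within 10 kb of 8 genes in sgPRKCI on enzalutamide, 6 in sgC on enzalutamide, 6 in sgPRKCI in DMSO and 7 in sgC in DMSO. The same windows of all protein-coding genes held an EZH2 peak in 73.5%, 15.8%, 11.2% and 25.1% of cases, so the 8 genes in sgPRKCI on enzalutamide stood beside a background several times that of the other libraries. With EZH2 peaks that overlapped an H3K4me3 peak of any condition left out, the counts were 5, 6, 5 and 6, beside 8.83%, 10.2%, 5.69% and 7.90% of all genes. NKX2-1 was then missing in both sgPRKCI libraries. Its remaining EZH2 peak in sgC had 12 fragments on enzalutamide and 18 in DMSO. H3K27me3 was called at 7 genes in every library, beside 32.4%, 33.8%, 34.9% and 30.9% of all genes. H3K4me3 was called at 4, 4, 3 and 2 genes, beside 71.6%, 71.1%, 71.3% and 69.2%. Within 1 kb of an annotated start, EZH2 was called at 8, 6, 5 and 7 genes, where 63.9%, 10.7%, 8.08% and 18.9% of all genes had it. H3K27me3 was called there at 7 genes in each library, beside 14.4%, 16.3%, 16% and 15%, and H3K4me3 at 4, 4, 3 and 2 genes, beside 62.4%, 61.8%, 62% and 60.2%.

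**Figure D1:**
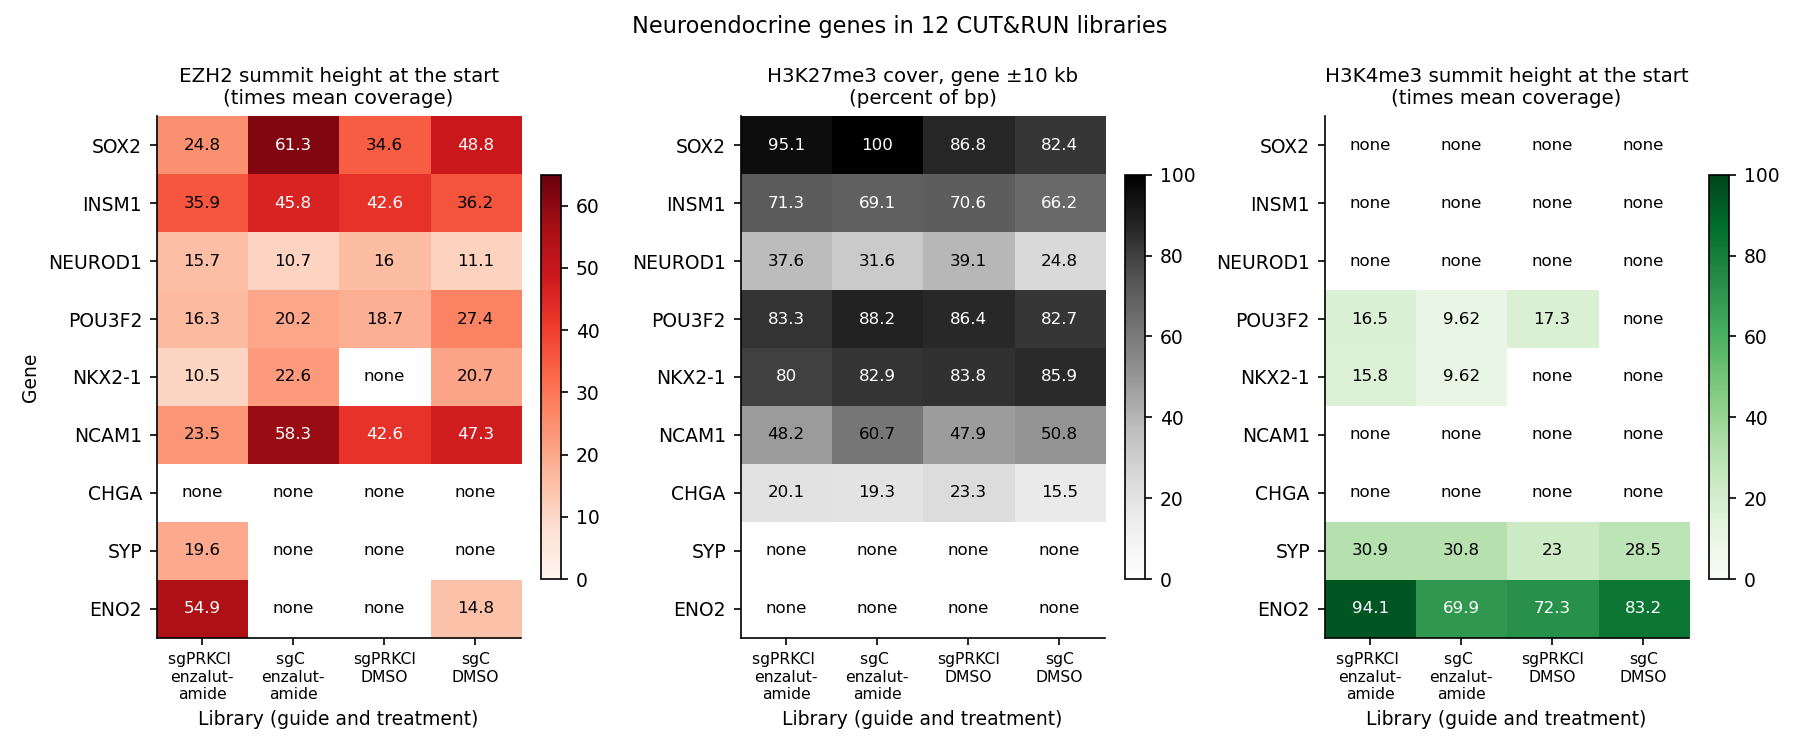
EZH2 and H3K4me3 summit height within 1 kb of the start (pileup over the library's mean coverage) and the percent of the gene and 10 kb on both sides covered by H3K27me3 peaks, for 9 genes (rows) in 4 libraries per antibody (columns); "none" means that no peak was called. SOX2 to NCAM1 carry EZH2 and H3K27me3, CHGA carries H3K27me3 alone, and SYP and ENO2 carry H3K4me3, with EZH2 at both starts in sgPRKCI on enzalutamide only.

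SOX2, a transcription factor of neural and pluripotent progenitors that is linked to lineage plasticity in prostate cancer, lies at chr3:181711925-181714436 inside the long noncoding gene SOX2-OT. H3K27me3 covered 95.1% of its window in sgPRKCI on enzalutamide, 100% in sgC on enzalutamide, 86.8% in sgPRKCI in DMSO and 82.4% in sgC in DMSO. In sgC on enzalutamide a 50474-bp peak, chr3:181680959-181731432, ran across the gene without a break, and in the other libraries the domain was interrupted near the start. EZH2 summit height, the number of fragments at the highest point over the library's mean coverage, was 24.8 in sgPRKCI on enzalutamide, 61.3 in sgC on enzalutamide, 34.6 in sgPRKCI in DMSO and 48.8 in sgC in DMSO. The highest point lay between 510 and 856 bp after the start in the 4 libraries, downstream of the promoter sequence above and inside the gene. On enzalutamide the height was 0.405 times as high in sgPRKCI as in sgC, with a 95% interval of 0.272 to 0.593 that covers counting error only. EZH2 peaks covered 3216 bp of the window in sgPRKCI on enzalutamide, 14989 bp in sgC on enzalutamide, 4250 bp in sgPRKCI in DMSO and 7688 bp in sgC in DMSO. Both sgPRKCI libraries were below both sgC libraries in height and in covered length.

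INSM1, a zinc finger repressor required for neuroendocrine differentiation, lies at chr20:20368104-20370949. Its H3K27me3 domain differed little in width, with a main peak of 15451 bp in sgPRKCI on enzalutamide, 15490 bp in sgC on enzalutamide, 14764 bp in sgPRKCI in DMSO and 14802 bp in sgC in DMSO. EZH2 summit height was 35.9 in sgPRKCI on enzalutamide, 45.8 in sgC on enzalutamide, 42.6 in sgPRKCI in DMSO and 36.2 in sgC in DMSO, and the counting intervals of all 4 overlapped. The summit lay inside the gene, between 1256 and 1371 bp from its lower-coordinate end. EZH2 was called across 9709 bp as 1 peak in sgC on enzalutamide, and as 3 peaks in sgPRKCI on enzalutamide, 4 in sgPRKCI in DMSO and 3 in sgC in DMSO, which covered 5540 bp, 6417 bp and 8129 bp.

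NEUROD1, a basic helix-loop-helix factor that defines a subtype of small cell neuroendocrine carcinoma, lies at chr2:181668295-181680517 on the minus strand and had the lowest or second lowest EZH2 of the 6 genes in each library. Its EZH2 summit height was 15.7 in sgPRKCI on enzalutamide, 13.7 in sgC on enzalutamide, 16.9 in sgPRKCI in DMSO and 11.1 in sgC in DMSO, at 24, 23, 19 and 15 fragments. With so few fragments the counting intervals overlapped in all comparisons, and no order of the conditions was detectable at this depth. H3K27me3 formed a domain of 8270 bp over the start in sgPRKCI on enzalutamide, 7587 bp in sgC on enzalutamide, 8514 bp in sgPRKCI in DMSO and 7080 bp in sgC in DMSO. EZH2-covered length was 3052 bp, 3326 bp, 2277 bp and 983 bp in the same order of conditions, smallest in sgC in DMSO.

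POU3F2, also called BRN2, is a POU domain factor that drives neuronal differentiation and neuroendocrine prostate cancer models, and lies at chr6:98834574-98839458 between the noncoding genes PNKY and LOC124901364. H3K27me3 covered 83.3% of its window in sgPRKCI on enzalutamide, 88.2% in sgC on enzalutamide, 86.4% in sgPRKCI in DMSO and 82.7% in sgC in DMSO. EZH2 was called at the start in all 4 libraries, with a height there of 16.3, 20.2, 18.7 and 27.4 in that order. A further EZH2 site about 8 to 11 kb downstream, toward LOC124901364, was higher than the start in both enzalutamide libraries and in sgPRKCI in DMSO, and the counting intervals of the 2 sites overlapped in each. EZH2-covered length was 4388 bp in sgPRKCI on enzalutamide, 11924 bp in sgC on enzalutamide, 2368 bp in sgPRKCI in DMSO and 5173 bp in sgC in DMSO. H3K4me3 was called within 1 kb of the start in 3 of 4 libraries. The peaks lay on the start in both sgPRKCI libraries and 101 to 300 bp after it in sgC on enzalutamide. H3K4me3 height there was 16.5 in sgPRKCI on enzalutamide, 9.62 in sgC on enzalutamide and 17.3 in sgPRKCI in DMSO. No peak was called in sgC in DMSO. These are 23, 15 and 21 fragments, and the heights stood at percentiles 3.77, 0.843 and 4.04 of all genes with H3K4me3 in the same library, so POU3F2 was among the weakest H3K4me3 calls. The sgC DMSO library also had the lowest H3K4me3 coverage, 0.842, and the part of that depth in the missing call was not tested.

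NKX2-1, a homeodomain factor of lung and forebrain that is used as a marker of small cell carcinoma, lies at chr14:36516397-36520232 on the minus strand and shares its start region with NKX2-1-AS1 and SFTA3. H3K27me3 covered 80.0% of its window in sgPRKCI on enzalutamide, 82.9% in sgC on enzalutamide, 83.8% in sgPRKCI in DMSO and 85.9% in sgC in DMSO. EZH2 summit height was 11.8 in sgPRKCI on enzalutamide, 22.6 in sgC on enzalutamide, 15.1 in sgPRKCI in DMSO and 20.7 in sgC in DMSO. In both sgC libraries the summit lay about 1.0 to 1.2 kb after the start, and in both sgPRKCI libraries the highest call was the site 5.2 to 5.4 kb upstream, near LOC105370453. NKX2-1 has 2 annotated starts, and distances are from the one whose sequence is shown. Within 1 kb of either start no EZH2 peak was called in sgPRKCI in DMSO. The call in sgPRKCI on enzalutamide was 191 bp wide. It lay 1146 to 1336 bp after the start shown, so it counted through the other start. EZH2 covered 710 bp, 3319 bp, 270 bp and 2013 bp of the window in sgPRKCI on enzalutamide, sgC on enzalutamide, sgPRKCI in DMSO and sgC in DMSO. H3K4me3 was called in both enzalutamide libraries, with a height of 15.8 in sgPRKCI and 9.62 in sgC, and in neither DMSO library. These summits lay 754 and 1001 bp after the start, nearest to the starts of SFTA3 and NKX2-1-AS1. The sgC call had 15 fragments. The part of the lower coverage of sgC in DMSO, 0.842, in the missing call there was not tested. Like POU3F2, these calls were weak, at percentiles 3.51 and 0.843 of genes with H3K4me3.

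**Figure D2:**
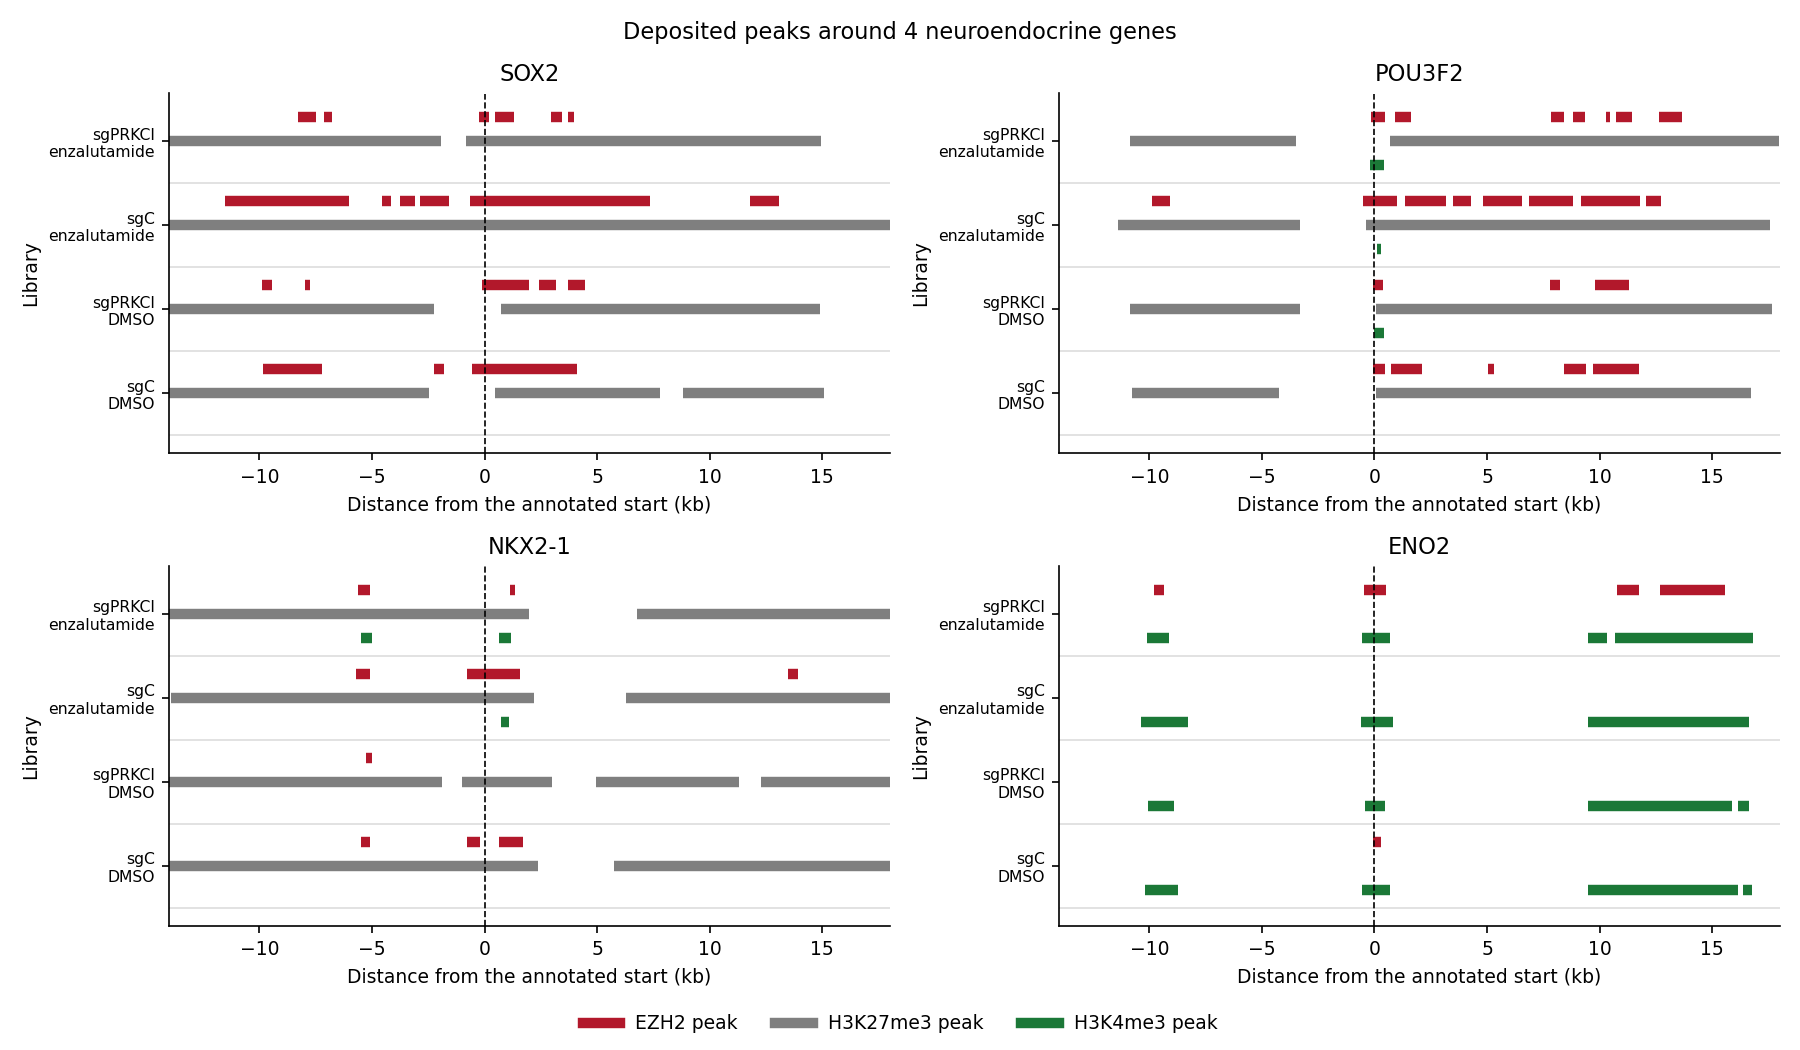
Deposited EZH2, H3K27me3 and H3K4me3 peaks of each library (rows) against the distance from the annotated start in kb, with upstream to the left, for SOX2, POU3F2, NKX2-1 and ENO2. EZH2 bars at SOX2 and POU3F2 are longest in sgC on enzalutamide, H3K4me3 bars at POU3F2 and NKX2-1 are short, and at ENO2 the EZH2 bars of sgPRKCI on enzalutamide sit on the H3K4me3 bars.

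NCAM1 encodes the adhesion molecule CD56, a clinical marker of neuroendocrine tumours, and spans chr11:112961420-113278436, which makes its window far longer than the others. H3K27me3 covered 48.2% of it in sgPRKCI on enzalutamide, 60.7% in sgC on enzalutamide, 47.9% in sgPRKCI in DMSO and 50.8% in sgC in DMSO. EZH2 summit height was 23.5 in sgPRKCI on enzalutamide, 58.3 in sgC on enzalutamide, 42.6 in sgPRKCI in DMSO and 47.3 in sgC in DMSO, with the summit within 1041 bp of the lower-coordinate end in each. The library of sgPRKCI on enzalutamide was the lowest, and its counting interval of 16.5 to 32.6 overlapped that of sgPRKCI in DMSO, 31.4 to 56.5, and neither sgC interval. The interval of its height ratio to sgPRKCI in DMSO, 0.348 to 0.868, excluded no change. EZH2 was called as 2 peaks in sgPRKCI on enzalutamide, 11 in sgC on enzalutamide, 5 in sgPRKCI in DMSO and 5 in sgC in DMSO, over 2675 bp, 12918 bp, 5172 bp and 4793 bp. A site about 34 kb into the gene was called in the other 3 libraries and not in sgPRKCI on enzalutamide.

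CHGA, at chr14:92922664-92935285, had the weakest Polycomb mark among the 7 genes with H3K27me3. H3K27me3 covered 20.1% of its window in sgPRKCI on enzalutamide, 19.3% in sgC on enzalutamide, 23.3% in sgPRKCI in DMSO and 15.5% in sgC in DMSO. The highest deposited −log10 q of these peaks was 2.76, 2.16, 2.57 and 2.86, close to the lowest value of about 1 in the broad lists and far from the 17.3 of INSM1 in sgPRKCI on enzalutamide. The longest peak lay upstream of the start in each library, and in sgPRKCI in DMSO it ended at −31 bp. No EZH2 peak and no H3K4me3 peak was called within 10 kb in any library.

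SYP, at chrX:49187815-49200193 on the minus strand, carried H3K4me3 on its own start with a height of 30.9 in sgPRKCI on enzalutamide, 30.8 in sgC on enzalutamide, 23.0 in sgPRKCI in DMSO and 28.5 in sgC in DMSO. A higher H3K4me3 peak lay inside the gene about 8.5 kb after the start, at 112.8, 118.0, 119.1 and 90.3 in that order, and another lay on the start of PRICKLE3, the neighbour downstream. EZH2 was called in sgPRKCI on enzalutamide alone, as 3 peaks that sat on these 3 H3K4me3 sites, with a height of 19.6 at the start of SYP and 54.2 inside the gene. No H3K27me3 peak was called within 10 kb in any library.

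ENO2, at chr12:6914580-6923697, had the strongest start among the 9 genes by H3K4me3. The height there was 94.1 in sgPRKCI on enzalutamide, 69.9 in sgC on enzalutamide, 72.3 in sgPRKCI in DMSO and 83.2 in sgC in DMSO. The counting intervals overlapped throughout, which does not show equal heights, and no interval of a ratio was made for this start. EZH2 was called on the ENO2 start in sgPRKCI on enzalutamide, at 54.9, and in sgC in DMSO, at 14.8, and not in the other 2 libraries. In sgPRKCI on enzalutamide the EZH2 peak ran from −470 to 525 bp around the start, inside the H3K4me3 peak from −565 to 684 bp. The window also held H3K4me3 peaks at LRRC23 upstream and in ATN1 downstream, and in sgPRKCI on enzalutamide those sites had EZH2 too, with a height of 107.2 in ATN1. Among the 9669 genes that, like SYP and ENO2, had H3K4me3 in every condition and H3K27me3 in none, EZH2 was called at 98.8% in sgPRKCI on enzalutamide, 2.25% in sgC on enzalutamide, 3.01% in sgPRKCI in DMSO and 18.3% in sgC in DMSO. The calls at SYP and ENO2 in sgPRKCI on enzalutamide were thus at the level of that class and say nothing particular about these genes.

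The order of the 6 genes by EZH2 height was alike across conditions, with SOX2, INSM1 and NCAM1 in the first 3 places and POU3F2, NKX2-1 and NEUROD1 behind them in each library. Within an order such as that of sgC in DMSO, neighbours such as SOX2 at 48.8 and NCAM1 at 47.3 could not be separated by their counting intervals. Among all genes with an EZH2 peak, SOX2 stood at percentile 96.2 in sgC on enzalutamide, 89.3 in sgPRKCI in DMSO and 97.2 in sgC in DMSO, and at percentile 13.4 in sgPRKCI on enzalutamide. INSM1 and NCAM1 stood at percentiles 92.6 and 95.6 in sgC on enzalutamide, 93.9 and 93.9 in sgPRKCI in DMSO, and 94.1 and 96.9 in sgC in DMSO, against 20.9 and 12.4 in sgPRKCI on enzalutamide. The median height of all genes with EZH2 was 74.5 in sgPRKCI on enzalutamide, against 16.1, 18.7 and 17.0 in the other libraries. When each EZH2 list was reduced to the 6182 peaks with the highest −log10 q, ENO2 alone remained called in sgPRKCI on enzalutamide, beside 40.0% of all genes.

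Under enzalutamide, the sgPRKCI library had less EZH2 over the 6 genes than the sgC library. EZH2-covered length was smaller in sgPRKCI at 6 of 6 genes, with ratios between 0.207 for NCAM1 and 0.918 for NEUROD1 and a median of 0.281. The same ratio had a median of 0.739 over the 1592 genes with both marks in all conditions, and of 0.556 over the 528 of them without H3K4me3. Summit height was lower at 5 of 6 genes, with a median log2 ratio of −0.85 against −0.02 over the 1592 genes and −0.33 over the 528 genes, and by fold enrichment the ratio was below 0 at NEUROD1 too, at −0.45. The counting interval of the height ratio excluded 1 for SOX2, POU3F2, NKX2-1 and NCAM1, with log2 ratios of −1.30, −0.76, −0.94 and −1.31. At POU3F2 and NKX2-1 the highest summits were different sites, so these intervals do not bound a change at the same site. Within 1 kb of an annotated start, height was 16.3 in sgPRKCI against 20.2 in sgC at POU3F2, and 10.5 against 22.6 at NKX2-1. At the upstream site of NKX2-1 it was 11.8 against 13.7. The height is scaled to all fragments of a library. In sgPRKCI on enzalutamide most EZH2 peaks lay at H3K4me3 without H3K27me3. A shift of fragments to those sites and a loss from these genes therefore cannot be told apart. No EZH2, H3K27me3 or H3K4me3 call was lost at a member in this comparison, where 2.1%, 4.1% and 1.05% of all genes lost theirs, while SYP and ENO2 gained EZH2, as did 59.9% of all genes. No member gained H3K27me3 or H3K4me3 here, against 2.72% and 1.61% of all genes.

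In DMSO, sgPRKCI and sgC differed less uniformly. EZH2-covered length was smaller in sgPRKCI at 4 of 6 genes, SOX2, INSM1, POU3F2 and NKX2-1, and larger at NEUROD1 and NCAM1, with a median ratio of 0.661 against 0.626 over the 1592 genes and 0.649 over the 528 genes. The median log2 height ratio was −0.17, against −0.18 over the 1592 genes and −0.09 over the 528 genes, and all 6 counting intervals included no change. ENO2 lost its EZH2 call, as did 14.8% of all genes, and no member gained EZH2, against 1.01%. POU3F2 gained H3K4me3, as did 2.66% of all genes, and no member lost H3K4me3, against 0.494%. No member gained or lost H3K27me3, against 6.35% and 2.31%.

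Enzalutamide in sgC cells went with more EZH2-covered length at 6 of 6 genes, from 1.19 times at INSM1 to 3.38 times at NEUROD1, with a median of 2.12. This was the direction of 82.5% of the 1592 genes and 93.6% of the 528 genes, whose medians were 1.47 and 1.64. The enzalutamide library also had the higher mean coverage, 1.68 against 1.35, and its EZH2 peaks covered 17.4 Mb in all, against 10.3 Mb. The highest summit in the window was higher in enzalutamide at 6 of 6 genes, and each counting interval included no change. The median log2 ratio was 0.30, against 0.10 over the 1592 genes and 0.24 over the 528 genes, of which 75.4% were higher. At POU3F2 this summit lay 173 bp after the start in DMSO and 10308 bp after it on enzalutamide. At NEUROD1 the highest summit lay 930 bp after the start in DMSO and 2178 bp before it on enzalutamide. Within 1 kb of the start, height was lower on enzalutamide at POU3F2 (20.2 against 27.4) and NEUROD1 (10.7 against 11.1), and higher at the other 4 genes. By the deposited fold enrichment the log2 ratio was −0.02 at INSM1 and −0.25 at NCAM1, and above 0 at the other 4 genes. POU3F2 and NKX2-1 gained H3K4me3, as did 2.42% of all genes, and none lost it, against 0.534%. ENO2 lost its EZH2 call, as did 12.2% of all genes, and no member gained one, against 2.87%. No member gained or lost H3K27me3, against 4.84% and 1.95%.

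In sgPRKCI cells the highest summit in the window was lower on enzalutamide at 6 of 6 genes, by a median log2 ratio of −0.38. The 1592 genes had a median of 0.25 and the 528 genes one of 0.01. The counting interval excluded no change for NCAM1, at −0.86 (−1.52 to −0.20), and included it for the other 5. This summit was not the same site in both libraries at NEUROD1 and POU3F2. Within 1 kb of either annotated start of NKX2-1, EZH2 was called on enzalutamide, at 10.5, and not in DMSO. By the deposited fold enrichment, which is relative to the local background, the log2 ratio was 0.31 at SOX2, 0.14 at POU3F2 and 0.06 at NKX2-1, so the direction at these 3 genes depended on the measure. Covered length was larger at NEUROD1, POU3F2 and NKX2-1 and smaller at SOX2, INSM1 and NCAM1, with a median ratio of 1.08 against 1.73 over the 1592 genes and 1.30 over the 528 genes. SYP and ENO2 gained EZH2, as did 62.7% of all genes, and no member lost it, against 0.394%. NKX2-1 gained H3K4me3, as did 1.32% of all genes, and none lost it, against 1.04%. No member gained or lost H3K27me3, against 2.46% and 4.98%. The 4 comparisons share libraries and are therefore not independent of each other.

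**Figure D3:**
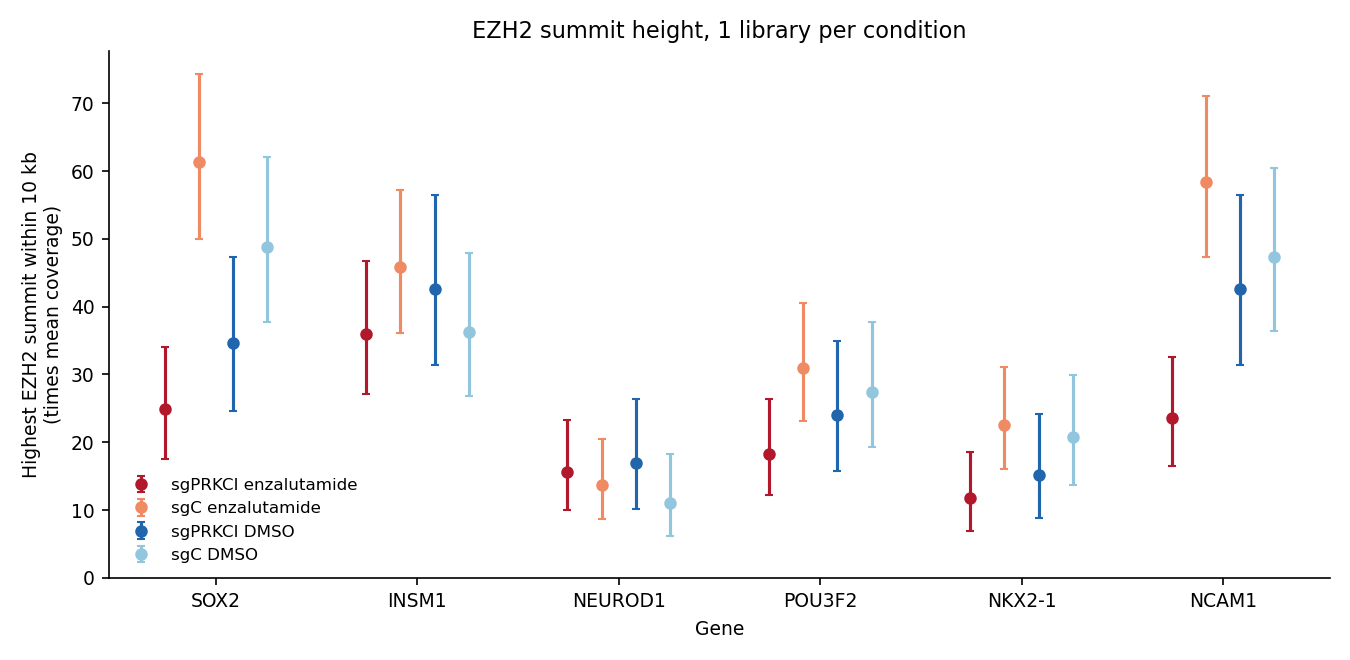
Highest EZH2 summit within 10 kb, as pileup over mean coverage, for the 6 genes with EZH2 and H3K27me3, with 1 point per library and bars for the 95% Poisson interval of its fragments (counting error only). At SOX2 and NCAM1 the interval of sgPRKCI on enzalutamide lies below those of both sgC libraries, and at NEUROD1 all 4 intervals overlap.

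**Figure D4:**
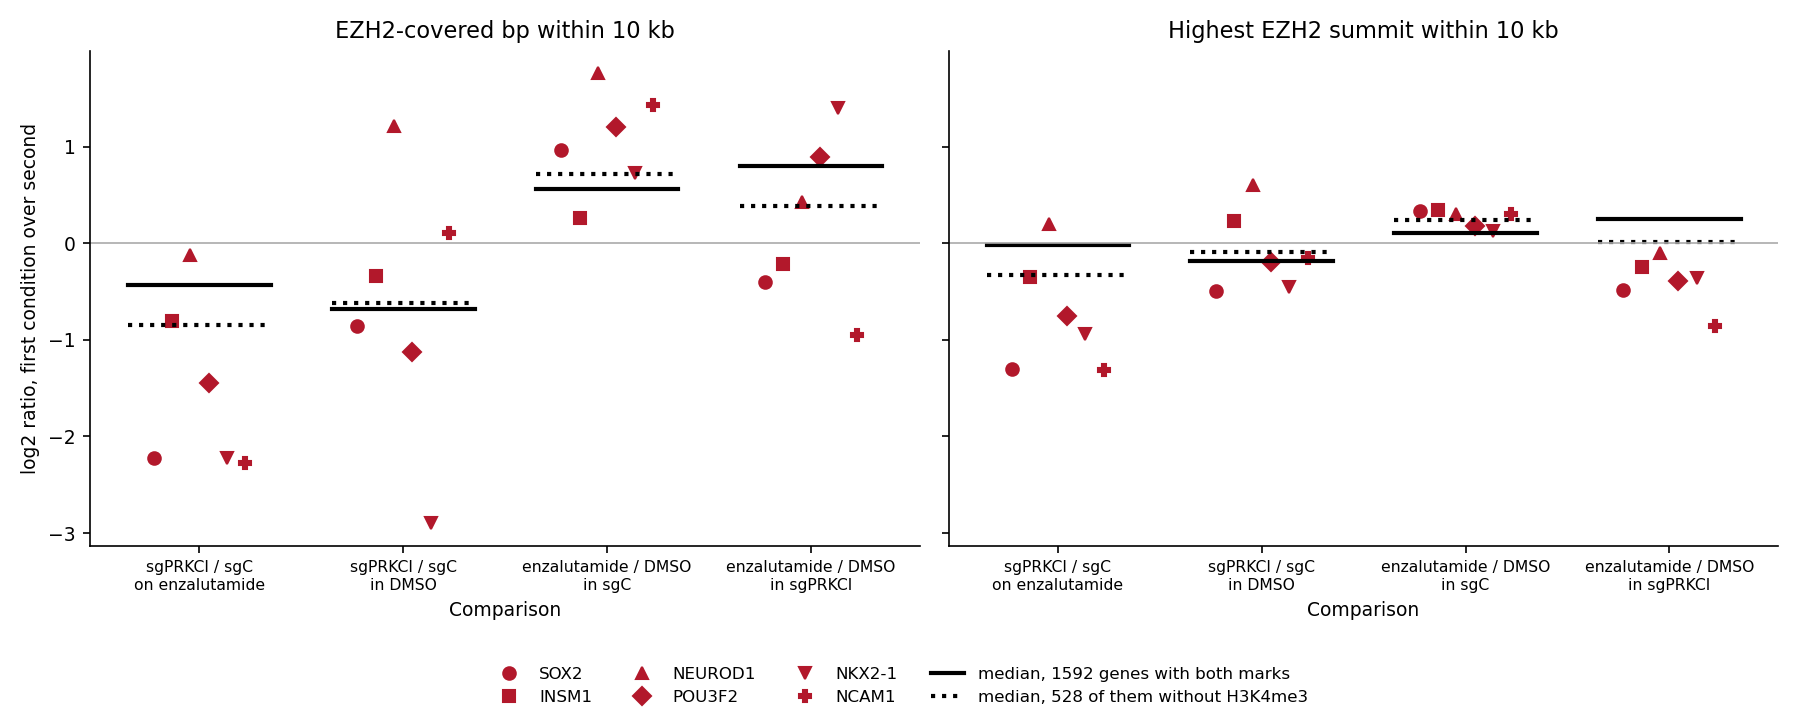
log2 ratios of EZH2-covered bp (left) and of the highest EZH2 summit (right) for 6 genes in 4 comparisons, with lines for the medians over 1592 genes with EZH2 and H3K27me3 in all conditions and over the 528 of them without H3K4me3. For sgPRKCI over sgC on enzalutamide the 6 points of covered bp lie below 0, with a median ratio of 0.281, and for enzalutamide over DMSO in sgC the 6 points lie above 0.

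Of the EZH2 peaks in the 6 windows, nearly every one lay on H3K27me3 of its own condition, 24 of 25 in sgPRKCI on enzalutamide, 32 of 32 in sgC on enzalutamide, 21 of 21 in sgPRKCI in DMSO and 21 of 22 in sgC in DMSO. On H3K4me3 lay 3, 2, 1 and 0 of them, at POU3F2 and NKX2-1. H3K27me3 cover of the 6 windows had a median of 75.6% in sgPRKCI on enzalutamide, 76.0% in sgC on enzalutamide, 77.2% in sgPRKCI in DMSO and 74.3% in sgC in DMSO. Cover is a percent of a window whose length follows the gene's span, and no set of genes of like span was made. The 1592 genes with both marks had medians of 28.5%, 32.6%, 30.1% and 24.9%, each below the median of the 6 members. Cover at single members differed more than this median, as at NEUROD1, where it was 37.6% in sgPRKCI on enzalutamide, 31.6% in sgC on enzalutamide, 39.1% in sgPRKCI in DMSO and 24.8% in sgC in DMSO.

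Other genes of the neuroendocrine programme were set beside the members. Of 35 neural transcription factors, 24 had EZH2 and H3K27me3 in all 4 conditions, beside 7.95% of all protein-coding genes. H3K27me3 was called at 32, 32, 31 and 32 of them in the order used above, beside 32.4%, 33.8%, 34.9% and 30.9% of all genes. EZH2 was called at 31, 30, 25 and 26 of them, beside 73.5%, 15.8%, 11.2% and 25.1%. NEUROD2 and POU3F3, paralogs of members, and PAX6, a factor of eye and forebrain, had the highest EZH2 −log10 q of this list with sgPRKCI on enzalutamide left out of the ranking, and NEUROD2 reached a height of 49.7 in sgPRKCI on enzalutamide, 69.0 in sgC on enzalutamide, 47.1 in sgPRKCI in DMSO and 52.5 in sgC in DMSO. PHOX2A had H3K4me3 without H3K27me3 in every condition, and TLX3 had H3K27me3 alone. Of 34 neurosecretory and neuronal genes, 6 had EZH2 and H3K27me3 in all conditions, beside the same 7.95%, and EZH2 was called at 23, 12, 8 and 12, beside 73.5%, 15.8%, 11.2% and 25.1% of all genes. The 23 in sgPRKCI on enzalutamide are 67.6% of the list, below the share of all genes. CALCA, ELAVL4, SCG2 and SCG3 had H3K27me3 without EZH2 or H3K4me3, the state of CHGA, and SCG3 and SCG2 encode granins like it. CPE, ELAVL3, HES6, STX1A and VAMP2 had H3K4me3 without H3K27me3 in every condition, the state of SYP. In this list CACNA1A, RET and PCSK2 had the highest EZH2 −log10 q, again with sgPRKCI on enzalutamide left out. RET, a receptor tyrosine kinase gene, carried H3K4me3 with a height of 159 to 205, and EZH2 with a height of 96.7 in sgPRKCI on enzalutamide, 16.7 in sgC on enzalutamide, 16.9 in sgPRKCI in DMSO and 20.7 in sgC in DMSO.

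Among 17 regulators of neuroendocrine fate, 13 had H3K4me3 in every condition and H3K27me3 in none, beside 48.3% of all genes. H3K27me3 was called at 4 of them in each library, beside 30.9% to 34.9% of all genes, MYCN, PEG10, SRRM3 and SRRM4, and MYCN alone had EZH2 with it in all conditions. MYCN, an oncogene amplified in some neuroendocrine prostate cancers, had an EZH2 height of 21.6 in sgPRKCI on enzalutamide, 39.3 in sgC on enzalutamide, 30.2 in sgPRKCI in DMSO and 22.9 in sgC in DMSO. EZH2 was called at 17, 5, 2 and 8 of these regulators, beside 73.5%, 15.8%, 11.2% and 25.1% of all genes, the 5 in sgC on enzalutamide being AURKA, MYCN, PEG10, SRRM3 and SRRM4 and the 2 in sgPRKCI in DMSO MYCN and REST.

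The line's identity was checked with marker lists, beside shares of all genes of 69.2% to 71.6% for H3K4me3, 30.9% to 34.9% for H3K27me3 and 73.5%, 15.8%, 11.2% and 25.1% for EZH2. Of 18 luminal and androgen-responsive genes, H3K4me3 was called at 16 in every library and H3K27me3 at 1, HPN, and EZH2 was called at 15, 1, 1 and 2, with HPN in each library and ACP3 in sgC in DMSO. Of 12 basal and mesenchymal genes, H3K4me3 was called at 5, 5, 5 and 4, H3K27me3 at 7, 7, 7 and 6 and EZH2 at 5, 2, 3 and 3, which were CDH2 and ZEB1 in each library, ITGA6 in both sgPRKCI libraries, VIM in sgPRKCI on enzalutamide and sgC in DMSO, and FN1 in sgPRKCI on enzalutamide. CDH2 and ZEB1, genes of the mesenchymal programme, had EZH2 and H3K27me3 in all conditions, and ZEB1 also carried H3K4me3, with a height of 131 to 148, where CDH2 had no H3K4me3 peak. KRT5, KRT14, TP63 and TRIM29 had H3K27me3 alone. Of the 9 blood and endothelial genes, H3K4me3 was called within 10 kb of 6 in each library. Within 1 kb of an annotated start it was called at 1, beside 60.2% to 62.4% of all genes. CD14, CD79A and VWF had H3K4me3 within 10 kb in each library and no H3K27me3. H3K27me3 was called at 2, 1, 2 and 3 of the 9 genes of that list, PTPRC in each library, CD3E in sgPRKCI on enzalutamide and sgC in DMSO, CDH5 in sgPRKCI in DMSO and SPI1 in sgC in DMSO. EZH2 was called at CD14, CDH5 and VWF in sgPRKCI on enzalutamide alone, at CD79A there and in sgC in DMSO, and at PTPRC in sgC on enzalutamide. None of these EZH2 calls lay within 1 kb of an annotated start. PTPRC, the pan-leukocyte gene, had no H3K4me3 peak in any library. No cell type is called from these counts.

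**Figure D5:**
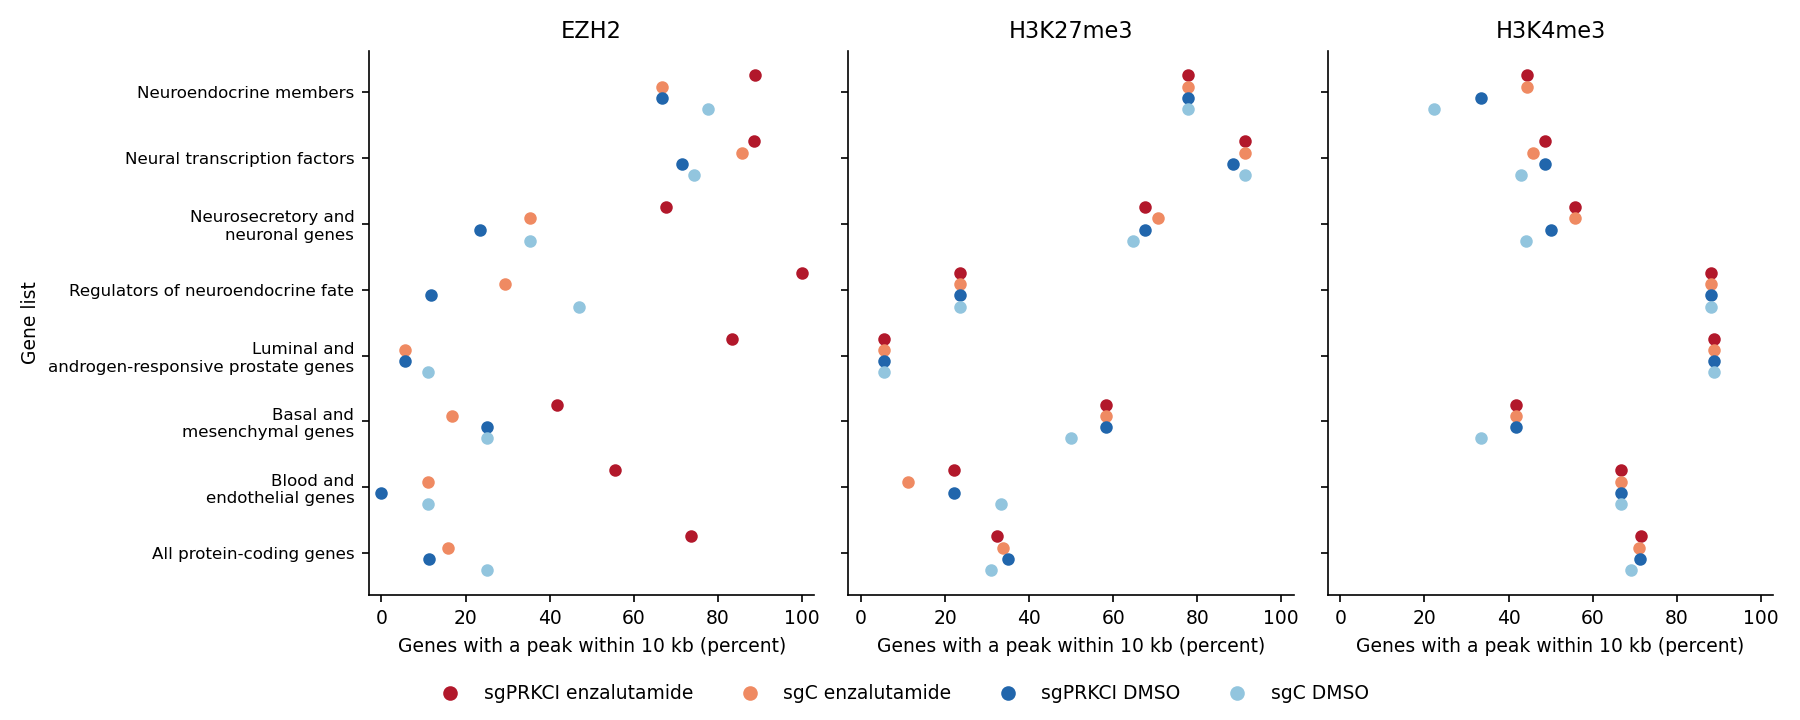
Percent of each gene list with an EZH2, H3K27me3 or H3K4me3 peak within 10 kb (x axis), with 1 point per library and all 20037 protein-coding genes in the bottom row. In sgPRKCI on enzalutamide EZH2 shifts to the right in every list, to 73.5% of all genes. Over all genes H3K27me3 runs from 30.9% to 34.9% and H3K4me3 from 69.2% to 71.6%, and the short lists spread more.

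By a distance over 12 scaled values, the fold enrichment of the 8 narrow lists and the cover of the 4 broad lists, the protein-coding genes most like each member were SOX17 and GYS2 for SOX2, IFITM10 and CREB5 for INSM1, PLAAT1 and GPR15LG for NEUROD1, LOC124904607 and GDF6 for POU3F2, HOXD3 and RDH8 for NKX2-1, and KCNQ3 and ZFPM2 for NCAM1. For CHGA they were MT1E and the granin gene SCG3, at distances of 0.0256 and 0.174 where the median gene was at 5.38. SYP and ENO2 were nearest to PRICKLE3 and ATN1, which share their windows, and then to HMGN1 and ULK1.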

How the data were processed

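CUT&RUN libraries of LNCaP cells were grouped by guide, treatment and antibody from the labels. The 12 peak lists of EZH2, H3K4me3 and H3K27me3 were used, and the 4 IgG libraries were not used here. The submitters' processing notes name MACS2, Bowtie2, SAMtools, Trimmomatic and FastQC with no version, and the build GRCh38. Per the layout of the deposited files, EZH2 and H3K4me3 are narrow and H3K27me3 broad peaks, called per library. The values the authors deposited for each peak are a fold enrichment ratio against local background, the −log10 of p and of q, a score made from the −log10 q, and in narrow lists the offset of the summit. They are the caller's own and describe peaks within a list. The lowest −log10 q was 4.00 to 4.05 in the narrow and 1.00 to 1.02 in the broad lists. Other contigs, 2.39% to 6.50% of a list, and 1 malformed row were left out.

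From the deposited fold enrichment and −log10 p the summit pileup was solved as whole fragments, within 0.002 in −log10 p, for 100% of narrow peaks in 7 lists. The EZH2 list of sgPRKCI on enzalutamide gave 99.97% with its pileup scaled by 0.890. Height is fragments over the library's mean coverage, itself the low end of the local background divided by that scale. Intervals are 95% exact Poisson, or binomial for ratios, and cover counting error only, since reads without molecular identifiers are not independent molecules. No source used here gives total reads, so depth is unknown for H3K27me3. A mark was called at a gene where a peak overlapped its span extended by 10 kb by at least 1 bp, or lay within 1 kb of an annotated start. Starts came from the RefSeq promoter table, which held 2 for NKX2-1, and for INSM1 and NCAM1 both annotated ends were used. Gene positions are those of RefSeq GRCh38.p14. With 1 library per antibody and condition no test was run. Overlap and fragment recovery were tested on simulated data. Python 3.11.15, numpy 2.4.6, pandas 2.3.3, scipy 1.17.1 and matplotlib 3.10.9 were used.

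Named are the 9 members, the top 3 genes of each list by EZH2 −log10 q outside sgPRKCI on enzalutamide, every gene of a count of 5 or fewer, neighbours nearer to a peak, and the 2 most alike genes per member. An item of the marker lists is not reported here. The members and the gene lists were chosen with earlier results of these data known. Alternatives covered the window, a stricter q, equal numbers of peaks, EZH2 peaks away from H3K4me3, summits in place of overlap, and fold enrichment in place of height.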

Additional observations from a re-analysis of the deposited data

Results flagged for a closer look

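In single libraries, the highest EZH2 summit within 10 kb was lower on enzalutamide in sgPRKCI and higher in sgC. This held at each of the 6 genes with EZH2 and H3K27me3. Each difference below is the log2 ratio of enzalutamide over DMSO in sgPRKCI minus that in sgC, and none was tested, since each condition has 1 library. For height it was −0.81 at SOX2, −0.59 at INSM1, −0.41 at NEUROD1, −0.57 at POU3F2, −0.49 at NKX2-1 and −1.16 at NCAM1. Of the 12 height ratios behind these differences, 11 had a counting interval that included no change. The highest summit was not always the same site. Within 1 kb of the start, height was lower on enzalutamide in both guides at POU3F2 and NEUROD1. At POU3F2 it was 16.3 against 18.7 in sgPRKCI and 20.2 against 27.4 in sgC. Within 1 kb of either NKX2-1 start it was 22.6 against 20.7 in sgC, and in sgPRKCI a peak was called on enzalutamide only. At SOX2, INSM1 and NCAM1 the start gave the same opposite directions. By the deposited fold enrichment the ratios had opposite signs in the 2 guides at 1 gene, NEUROD1, were above 0 in both at SOX2, POU3F2 and NKX2-1, and were below 0 in both at INSM1 and NCAM1. EZH2-covered length moved in opposite directions at 3 of these genes, with differences of −1.37 at SOX2, −0.47 at INSM1 and −2.38 at NCAM1. At the other 3 it was larger on enzalutamide in both guides, with differences of −1.34 at NEUROD1, −0.31 at POU3F2 and 0.67 at NKX2-1. At ENO2 an EZH2 peak within 10 kb was present on enzalutamide and absent in DMSO in sgPRKCI, with the reverse in sgC, and the highest summit on enzalutamide in sgPRKCI was 107.2, in ATN1. All of these rest on the EZH2 library of sgPRKCI on enzalutamide, in which 55.4% of peaks lay at H3K4me3 without H3K27me3, and the part of that library in them was not tested.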

How the results depend on the processing

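No paired analysis was possible because each antibody and condition has 1 library and the labels give no replicate numbers. Counting members by summit in place of overlap kept every count. Equal numbers of EZH2 peaks left 1 member called in sgPRKCI on enzalutamide, ENO2, so 6 members lost and 1 gained EZH2 against sgC on enzalutamide, and likewise 6 and 1 against sgPRKCI in DMSO. Of all genes, 8.99% lost and 38.4% gained it in the first of these comparisons, and 8.49% and 37.2% in the second. The 6 lost were SOX2, INSM1, NEUROD1, POU3F2, NKX2-1 and NCAM1. With EZH2 peaks at H3K4me3 left out, 5 members were called in sgPRKCI on enzalutamide, beside 8.83% of all genes. In that library 0 members then gained EZH2 against sgC on enzalutamide or sgPRKCI in DMSO, beside 1.81% and 3.73%. NKX2-1 was the 1 member to lose it against sgC on enzalutamide, beside 3.21%. The EZH2 peak that remained at NKX2-1 in sgC on enzalutamide was 447 bp wide with 12 fragments. It lay 13466 to 13912 bp after the start, and the filter had removed the peaks nearer to it. In sgC with enzalutamide 0 members lost EZH2, beside 0.609%. In sgPRKCI over sgC in DMSO the 1 loss was then NKX2-1 in place of ENO2, beside 2.58%. With a −log10 q of at least 10, NEUROD1 was the 1 member to gain EZH2 in sgPRKCI over sgC in DMSO, beside 0.729% of all genes. It was also the 1 gain in sgC with enzalutamide, beside 2.40%. In sgPRKCI on enzalutamide it was the 1 loss against sgC on enzalutamide and against sgPRKCI in DMSO, beside 1.76% and 0.359%. NKX2-1 joined SYP and ENO2 as 3 gains in sgPRKCI with enzalutamide, beside 64.6%. NKX2-1 and ENO2 were 2 losses in sgPRKCI over sgC in DMSO, beside 7.43%. A window of 1 kb gave the same 3 gains and 2 losses. The stricter q and equal peak numbers each left H3K4me3 at 2 members in sgC on enzalutamide, at the start too for the stricter q. POU3F2 and NKX2-1 thus became 2 gains in sgPRKCI over sgC on enzalutamide, beside 1.67% of all genes at either setting. In sgC with enzalutamide 0 members then gained H3K4me3, beside 2.38% at the stricter q and 1.70% at equal peak numbers. A window of 25 kb gave SYP as 1 H3K27me3 loss in sgPRKCI against sgC on enzalutamide and 1 gain in sgC with enzalutamide. Shares of all genes were not counted for the windows of 1 kb and 25 kb. A −log10 q of at least 3 left H3K27me3 at 6 members in each library, without CHGA, and lowered the median H3K27me3 cover of the 9 members to 25.9% in sgPRKCI on enzalutamide, 37.4% in sgC on enzalutamide, 26.4% in sgPRKCI in DMSO and 23.6% in sgC in DMSO, against 48.2%, 60.7%, 47.9% and 50.8% with all peaks. With fold enrichment in place of height, 7 of 24 EZH2 ratios changed sign, none of them among those whose interval excluded no change, and the highest H3K4me3 summit in the ENO2 window, in ATN1, had a log2 ratio of −0.54 for enzalutamide in sgPRKCI, against 0.32 by height. The causes were not tested. Counting error is a large part of the calls of 15 to 25 fragments at POU3F2, NKX2-1 and NEUROD1, and a missing peak means only that none passed the caller's threshold.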
